A study of Mus musculus with 24 samples.

Results

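The tendon marker genes are 10 genes whose transcripts are enriched in tendon cells, and they were followed here in mouse gastrocnemius muscle. They were found by matching the Ensembl identifiers of the counted genes to the symbols Tnmd, Kera, Chad, Fmod, Thbs4, Comp, Wif1, Cilp2, Scx and Mkx, which gave all 10 of them among 55401 counted genes. The study asked how a severe burn affects the muscle of young and of adult animals. Poly-A RNA was sequenced from the gastrocnemius of male C57BL6 mice in 4 groups of 3 mice, and each mouse gave 1 library. The burn or sham procedure was done at an age of 5 weeks in the young groups and of 11 weeks in the adult groups, and muscle was taken 24 h later. The young burn and adult burn groups received a scald over 25% of the body surface on back and belly, with fluid resuscitation, while the young sham and adult sham groups received neither. All 4 groups had isoflurane anaesthesia and buprenorphine. RNA came from a small piece of each muscle, and the sources used here do not say how much tendon the piece held.

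Tendon joins muscle to bone through parallel bundles of collagen fibrils, and sparse tendon cells keep that matrix. The transcription factors Scx and Mkx act early in the tendon lineage and hold the expression of its matrix genes, tenomodulin is a membrane protein of mature tendon cells, and small leucine-rich proteins and thrombospondins sit on the collagen fibrils and set their width and spacing. In a piece of muscle such transcripts can come from tendon, from its sheet-like extension over the muscle and from the junction of both.

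Promoter sequences are shown for 5 of the genes because the genes had low levels together in the young burn libraries. Scx binds the E-box, which has the letters CANNTG, and E-boxes on either strand are in capitals. The stretches are RefSeq promoters of the GRCm38.p6 build, written 5′ to 3′ on the strand of the gene and kept to bases before both the RefSeq and the Gencode start. They cover chrX:133850758-133850979 on the plus strand for Tnmd, chr11:94564797-94565046 on the plus strand for Chad, chr1:134037004-134037253 on the plus strand for Fmod, chr13:92794819-92795068 on the minus strand for Thbs4, and chr10:121033754-121033959 on the plus strand for Wif1.
Tnmd: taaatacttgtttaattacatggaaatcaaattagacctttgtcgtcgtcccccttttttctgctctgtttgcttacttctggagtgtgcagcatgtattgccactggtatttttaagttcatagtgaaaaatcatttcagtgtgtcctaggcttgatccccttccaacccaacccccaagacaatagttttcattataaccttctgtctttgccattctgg
Chad: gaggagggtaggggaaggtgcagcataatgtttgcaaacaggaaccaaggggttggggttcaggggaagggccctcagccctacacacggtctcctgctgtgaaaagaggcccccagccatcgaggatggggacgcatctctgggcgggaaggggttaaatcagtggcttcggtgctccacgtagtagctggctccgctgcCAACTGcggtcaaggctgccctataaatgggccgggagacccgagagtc
Fmod: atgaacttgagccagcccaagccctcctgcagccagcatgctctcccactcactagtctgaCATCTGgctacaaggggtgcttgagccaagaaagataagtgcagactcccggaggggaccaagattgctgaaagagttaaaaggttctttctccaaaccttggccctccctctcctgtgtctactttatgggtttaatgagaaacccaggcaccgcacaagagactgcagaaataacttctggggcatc
Thbs4: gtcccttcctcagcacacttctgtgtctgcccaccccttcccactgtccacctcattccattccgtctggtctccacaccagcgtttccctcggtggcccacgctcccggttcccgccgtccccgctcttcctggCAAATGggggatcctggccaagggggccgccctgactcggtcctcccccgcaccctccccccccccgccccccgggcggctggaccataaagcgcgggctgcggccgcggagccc
Wif1: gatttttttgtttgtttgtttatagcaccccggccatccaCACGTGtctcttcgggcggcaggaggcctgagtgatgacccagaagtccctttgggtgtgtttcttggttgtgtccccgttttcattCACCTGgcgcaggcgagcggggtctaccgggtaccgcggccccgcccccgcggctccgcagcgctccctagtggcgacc
The Tnmd stretch of 222 bases held 0 E-boxes, those of Chad, Fmod and Thbs4 held 1 each, and that of Wif1 held 2. A promoter was found for 7 of the 10 genes, and 5 of these 7 held an E-box in the 250 bases before the RefSeq start. The same motif stood in 66% of 27025 gene promoters of that length. The form CAGATG, read as CATCTG on the other strand, stood in the Fmod promoter alone of the 7, against 14.5% of all promoters. The TATA motif TATAAA stood in 2 of the 7 on either strand, in Chad and Wif1, against 13% of all. Kera and Cilp2 are not shown because their RefSeq windows lie after the Gencode start, and Comp, Scx and Mkx are not shown.

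The libraries held 4392605 to 5688512 counts. Levels are given as CPM, edgeR's depth-scaled counts after TMM scaling, which adjusts each library for its composition. A gene was called different at an adjusted p under 0.05 in edgeR's quasi-likelihood test of raw counts. Skeletal muscle fibre markers summed to 102779.8 to 211891 CPM over the 12 libraries, as the labelled tissue would give. Young burn replicate 2 stood apart from its group: its root mean square log2 difference to the other young burn libraries was 0.665 and 0.713, while all other pairs within a group lay between 0.354 and 0.440. Values without it, in 11 libraries, are given beside those of all 12 where a call depends on it. All 10 marker genes passed the filter on low counts among 12408 genes tested. Wif1 and Mkx passed it through the young sham group alone, the only group with at least 10 counts in every library, and their differences from young sham are to be read with that in mind.

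Fmod, the gene of the collagen-binding proteoglycan fibromodulin, and Thbs4, a thrombospondin of tendon and of the muscle end at the junction, had the highest levels per length in every group. In young sham, the level per length (RPKM, the CPM divided by the exon length in kilobases) was 67.5 ± 8.05 for Fmod and 41.4 ± 7.32 for Thbs4 (SD, n = 3 mice). Kera at 17.2 ± 5.74 RPKM and Tnmd at 16.7 ± 5.25 RPKM followed with overlapping ranges, and Chad at 11.96 ± 3.01 RPKM overlapped with Tnmd. Scx at 7.71 ± 1.27, Cilp2 at 6.48 ± 1.06 and Comp at 5.68 ± 0.966 RPKM overlapped with their neighbours in this order, while Wif1 at 2.57 ± 0.493 and Mkx at 0.852 ± 0.181 RPKM were lowest without overlap. In young burn, Thbs4 at 28.4 ± 6.40 and Fmod at 27.6 ± 11.7 RPKM overlapped, and the highest mean of the other 8 genes was that of Tnmd, at 4.30 ± 2.19 RPKM. Adult sham kept Fmod and Thbs4 first with 45.6 ± 17.6 and 32.0 ± 17.5 RPKM, overlapping, and the adult burn means were 29.9 ± 10.0 RPKM for Thbs4 and 28.7 ± 6.003 RPKM for Fmod.

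The first comparison asked what the burn did in young muscle. All 10 genes had lower levels in young burn than in young sham, and for all 10 the highest young burn library lay below the lowest young sham library. Among all tested genes, 11.2% were lower without overlap in this comparison. Wif1 and Mkx, which passed the filter on low counts through young sham alone, are among the 10, and their part in these counts is no support. The median log2 difference of the 10 genes was -1.53, against 0.01 over all 12408 genes tested. At 3 mice a group none of them was called, and edgeR called 8 genes in all, or 0.0645% of those tested. At an unadjusted p under 0.05 stood 9 of the 10 marker genes, against 20.3% of all tested genes. DESeq2 called 7 of the 10 lower (Chad, Cilp2, Comp, Fmod, Kera, Scx and Tnmd) on the same libraries, where it called 1.43% of tested genes lower. The direction was the same with both tools. The number called also differed within edgeR by scaling and filter, as given under the processing below.

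**Figure D1:**
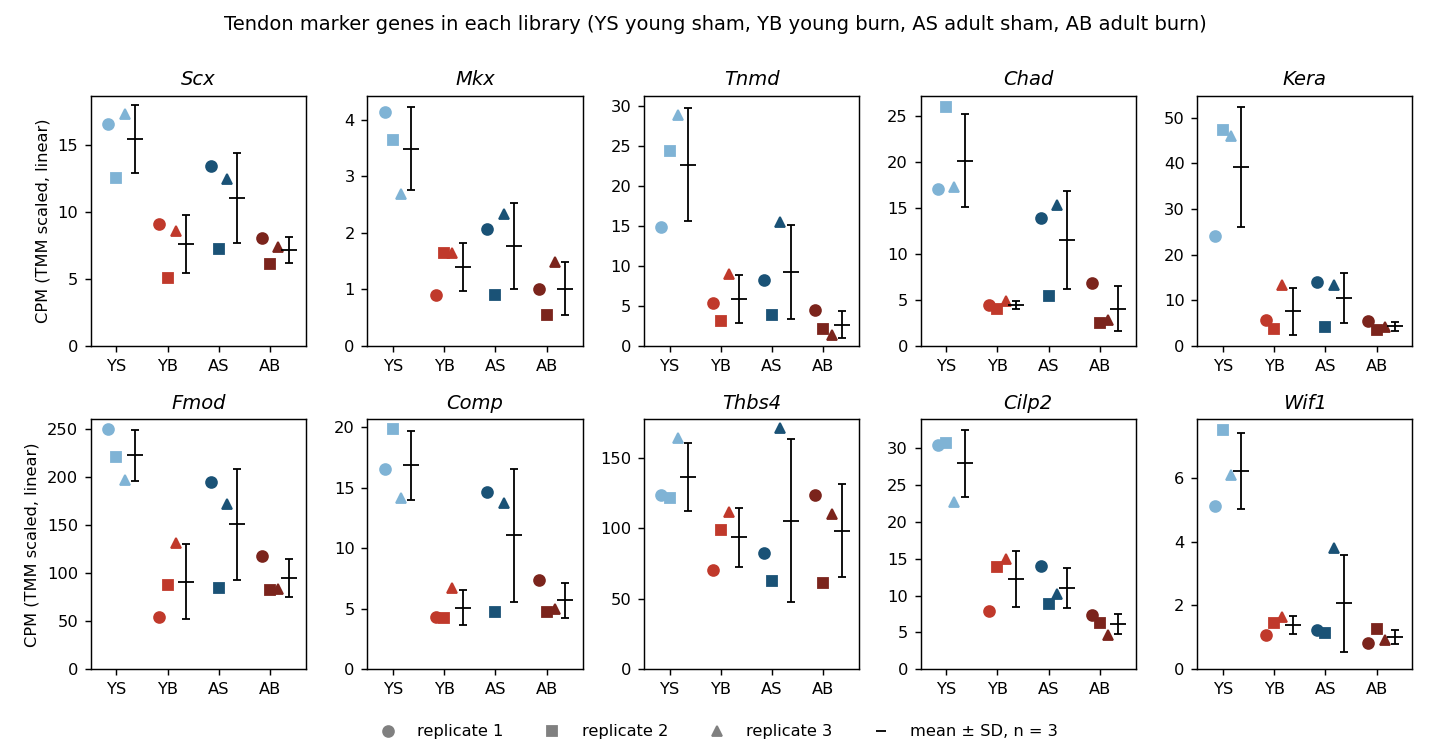
CPM of each tendon marker gene (linear axis from 0) in the 12 libraries, by group, with replicate numbers as symbols and the mean ± SD (n = 3) beside them. For every gene the 3 young burn libraries lie below the 3 young sham libraries, and adult sham replicate 2 is the lowest of the adult sham libraries.

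The transcription factors were at modest levels. Scx, which drives tendon cell fate, had 16.6, 12.6 and 17.3 CPM in young sham replicates 1, 2 and 3 and 9.14, 5.11 and 8.58 CPM in young burn. Its groups did not overlap, with young burn replicate 2 lowest, and its log2 difference was -1.02 ± 0.26 (SE, adjusted p = 0.0827). Mkx, a homeobox factor needed for tendon collagen, had 4.14, 3.65 and 2.68 CPM in young sham and 0.896, 1.64 and 1.64 CPM in young burn, from 46 counts over the young sham and 22 over the young burn libraries. Its log2 difference was -1.32 ± 0.40 (adjusted p = 0.116), without overlap but resting on few counts.

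Tnmd encodes tenomodulin, the membrane protein that marks mature tendon cells. Its levels were 14.9, 24.3 and 28.8 CPM in young sham and 5.38, 3.10 and 8.99 CPM in young burn. Young sham replicate 1 was lowest of the shams and still above all young burn libraries, and the fitted fold was 3.92 (log2 -1.97 ± 0.46, adjusted p = 0.0686).

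Among the leucine-rich repeat genes, Kera and Chad had wide gaps and Fmod a smaller one. Kera, the gene of the keratan sulfate proteoglycan keratocan, had 24.1, 47.4 and 46.1 CPM in young sham and 5.73, 3.65 and 13.3 CPM in young burn. The highest young burn library, replicate 3, was well below the lowest sham, and the log2 difference of -2.39 ± 0.44 (adjusted p = 0.0593) was the largest in size of the 10. Chad, which encodes the collagen- and integrin-binding protein chondroadherin, had 17.0, 25.9 and 17.3 CPM in young sham and 4.48, 4.02 and 4.91 CPM in young burn. The young burn libraries lay close together, and the fitted fold was 4.51 (log2 -2.17 ± 0.39, adjusted p = 0.0553). Fmod had 250.4, 221 and 197 CPM in young sham and 53.9, 88.2 and 131 CPM in young burn, a log2 difference of -1.29 ± 0.31 (adjusted p = 0.0716). Its groups did not overlap, with young burn replicate 3 nearest to the shams.

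The genes of oligomeric and other secreted matrix proteins differed more among themselves. Comp, a thrombospondin family member that binds collagen, had 16.6, 19.8 and 14.1 CPM in young sham and 4.30, 4.20 and 6.74 CPM in young burn (log2 -1.74 ± 0.35, adjusted p = 0.0623). Thbs4 had 123, 121 and 164 CPM in young sham and 70.4, 98.6 and 112 CPM in young burn. Its groups came close, with 112 against 121 CPM, and its log2 difference of -0.54 ± 0.33 (adjusted p = 0.372) was the smallest in size of the 10. Cilp2, a secreted protein of cartilage and tendon matrix, had 30.4, 30.8 and 22.7 CPM in young sham and 7.88, 13.9 and 14.9 CPM in young burn (log2 -1.199 ± 0.24, adjusted p = 0.0623). Wif1, a secreted antagonist of Wnt ligands, had 5.11, 7.49 and 6.09 CPM in young sham and 1.08, 1.46 and 1.64 CPM in young burn, from 83 and 22 counts (log2 -2.16 ± 0.40, adjusted p = 0.0593).

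Without young burn replicate 2, all 10 genes again had a negative log2 difference, and 4 of them were called lower. Among 12651 tested genes, 26, or 0.206%, were called lower. Kera fell by 2.05 on the log2 scale (SE 0.40, adjusted p = 0.0418), Wif1 by 2.19 (SE 0.46, adjusted p = 0.0447), Chad by 2.09 (SE 0.42, adjusted p = 0.0440) and Cilp2 by 1.30 (SE 0.26, adjusted p = 0.0440). The Wif1 call is no support, since the low counts of Wif1 passed the filter through young sham alone. The median of the 10 genes was -1.54 in these 11 libraries, close to that of all 12. Leaving out young burn replicate 1 in its place gave 6 calls among the 10 genes (Chad, Cilp2, Comp, Kera, Scx and Wif1), with 2.31% of tested genes called lower, and leaving out replicate 3 gave 0. Leaving out adult sham replicate 2, a library of neither group compared, gave 3 (Chad, Comp and Kera), and leaving out adult sham replicate 3 or adult burn replicate 1 gave 1 each (Wif1 and Chad). Over all tested genes, the calls in either direction ran from 1 to 697 with each library left out in turn. The share in each of these last settings is not given here, so their counts show only that calls depended on single libraries.

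The second comparison asked the same in adult muscle. All 10 genes again had a negative log2 difference between adult burn and adult sham, with a median of -0.90 against 0.00 over all tested genes, and none was called. In all, edgeR called 1 gene (0.00806% of those tested), and 6 of the 10 genes had an unadjusted p under 0.05 against 6.87% of all tested. In contrast to the young groups, 9 of the 10 genes overlapped between the groups. The exception was Cilp2, with 14.1, 8.84 and 10.2 CPM in adult sham and 7.38, 6.33 and 4.64 CPM in adult burn (log2 -0.85 ± 0.28, adjusted p = 0.603), and 9.74% of all tested genes were lower without overlap.

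Tnmd had 8.27, 3.85 and 15.5 CPM in adult sham and 4.53, 2.17 and 1.30 CPM in adult burn. Adult sham replicate 2 lay below the highest adult burn library, and the log2 difference was -1.76 ± 0.54 (adjusted p = 0.569, and 0.110 in 11 libraries). Chad had 13.9, 5.44 and 15.3 CPM in adult sham and 6.88, 2.53 and 2.78 CPM in adult burn (log2 -1.49 ± 0.40, adjusted p = 0.555, and 0.0866 in 11 libraries). Kera had 14.1, 4.08 and 13.4 CPM in adult sham and 5.37, 3.43 and 4.08 CPM in adult burn (log2 -1.29 ± 0.51, adjusted p = 0.685). In each of these 3 genes the overlap came from adult sham replicate 2 alone. Comp (log2 -0.96 ± 0.35), Wif1 (-1.02 ± 0.49), Mkx (-0.81 ± 0.47), Fmod (-0.67 ± 0.31) and Scx (-0.62 ± 0.27) lay between, and Thbs4 was at -0.10 ± 0.33 with levels of 82.3, 62.8 and 171 CPM in adult sham and 124, 60.9 and 110.1 CPM in adult burn.

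The burn differences of the young and the adult mice were set against each other by the interaction, the young burn difference minus the adult one. It was called for 0 of the 10 genes and 0 of all tested genes, while 893 genes (7.2%) and 0 of the 10 had an unadjusted p under 0.05. The estimates ran from -1.14 ± 0.66 for Wif1 to -0.21 ± 0.75 for Tnmd, all negative. Wif1 and Mkx passed the filter on low counts through young sham alone, so their signs here are no support. The median of the 10 genes was -0.57, and without adult sham replicate 2 it was -0.28 with 9 of the 10 negative. For Tnmd the approximate 95% interval was -1.67 to 1.26 on the log2 scale, which holds both no difference between the ages and a difference larger than the estimate. The sign of Tnmd turned to 0.11 ± 0.65 without young burn replicate 2.

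**Figure D2:**
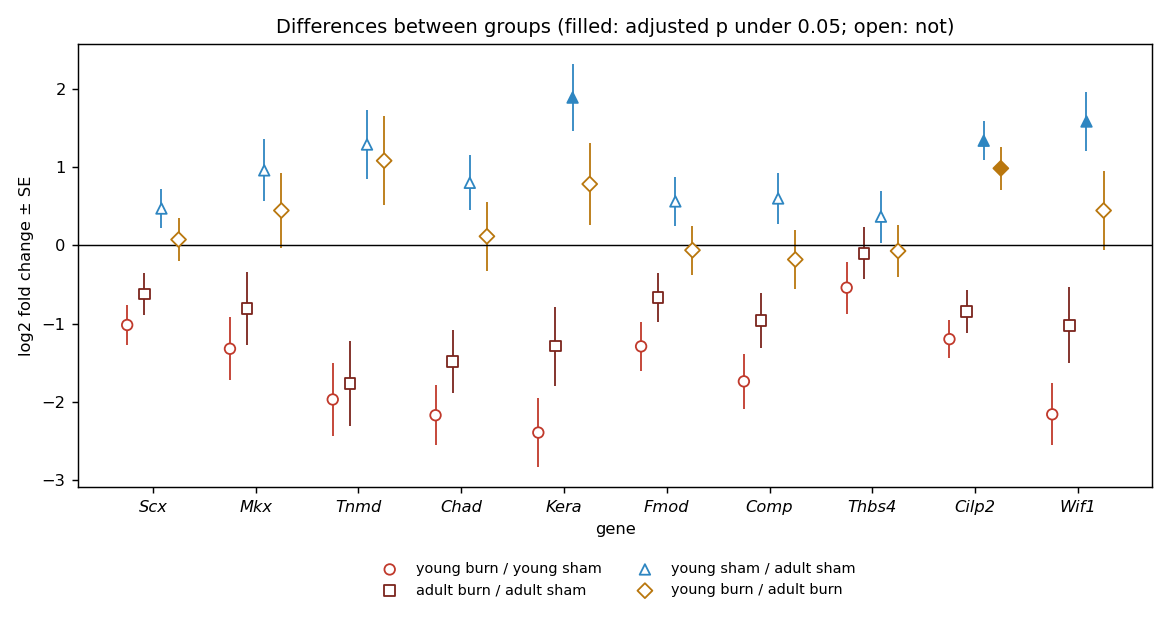
Log2 fold change with its SE from edgeR in the 12 libraries for each gene (horizontal) in the 4 comparisons, with filled symbols for an adjusted p under 0.05. Both burn comparisons lie below 0 for every gene, young sham lies above adult sham for every gene, and only Kera, Cilp2 and Wif1 (young sham against adult sham) and Cilp2 (young burn against adult burn) are filled.

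The comparison of both sham groups addressed age without injury. All 10 genes were higher in young sham, with a median log2 difference of 0.88 (0.56 when adult sham replicate 2 was left out and 1.13 when replicate 3 of that group was), and 3 of the 10 were called, while 1.92% of tested genes were called higher. Cilp2 was higher by 1.34 ± 0.25 on the log2 scale (adjusted p = 0.0127), Kera by 1.89 ± 0.43 (adjusted p = 0.0297) and Wif1 by 1.58 ± 0.38 (adjusted p = 0.0373). Their means were 28.0, 39.2 and 6.23 CPM in young sham against 11.03, 10.5 and 2.06 CPM in adult sham, without overlap. Wif1 passed the filter on low counts through young sham alone, so its call is not counted as support. Without young burn replicate 2, Tnmd was called too (1.28 ± 0.38, adjusted p = 0.0399), among 5.27% of tested genes called higher. For 6 of the 10 genes, Wif1 and Mkx among them, the sham groups did not overlap. This stands against 15.7% of all tested genes that were higher without overlap. These calls depended on single libraries: none was left without young sham replicate 2 or without adult sham replicate 2, Cilp2 alone without young sham replicate 3 or adult sham replicate 1, and Wif1 alone without adult sham replicate 3. The Wif1 call was also lost without young burn replicate 3, without adult burn replicate 1, 2 or 3, and with scaling by library size alone. The young sham libraries serve in this comparison and in that with young burn, so the 2 results are not independent.

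The ages were then compared after the burn. Between young burn and adult burn, 7 of the 10 genes were higher and 3 lower in young burn, with a median of 0.28. This median depended on single libraries: it was 0.0634 with 5 of 10 higher without adult burn replicate 2, 0.0840 without young burn replicate 3, and 0.38 with 10 of 10 higher without adult burn replicate 1. With the 2 groups alone it was 0.11 over 8 tested genes. Cilp2 alone was called (0.99 ± 0.27, adjusted p = 0.0348, and 0.88 ± 0.29 with 0.0464 in 11 libraries), while 5.98% of tested genes were called higher, and 11.2% in 11 libraries. This call was lost without young burn replicate 3, adult burn replicate 2 or adult burn replicate 3. Tnmd was at 1.08 ± 0.57 (adjusted p = 0.226) and Kera at 0.79 ± 0.52 (adjusted p = 0.342), while Fmod, Thbs4 and Comp had estimates of -0.06 ± 0.31, -0.07 ± 0.33 and -0.18 ± 0.38.

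The next question was whether the genes moved together between mice of the same group. The spread within groups differed between the genes. The SD of log2 CPM within groups was 0.75 for Tnmd, larger than that of 98.3% of tested genes, 0.72 for Kera, 0.56 for Chad and 0.51 for Comp and Thbs4, against a median of 0.247 over all tested genes. Scx was lowest at 0.35, still above 74.9% of tested genes. That ranking takes no account of level. Relative to edgeR's trend for genes of like level, the biological coefficient of variation was 2.24 times as large for Tnmd, 2.23 for Kera and 1.498 to 1.71 for Comp, Fmod, Chad and Thbs4, but 1.14 for Cilp2, 1.07 for Scx, 1.06 for Wif1 and 0.756 for Mkx. In adult sham the highest library was 1.59 times the lowest for Cilp2 and 4.02 times for Tnmd, while in young sham no gene exceeded the 1.97 times of Kera. The counts behind Tnmd ran from 7 to 120 per library.

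**Figure D3:**
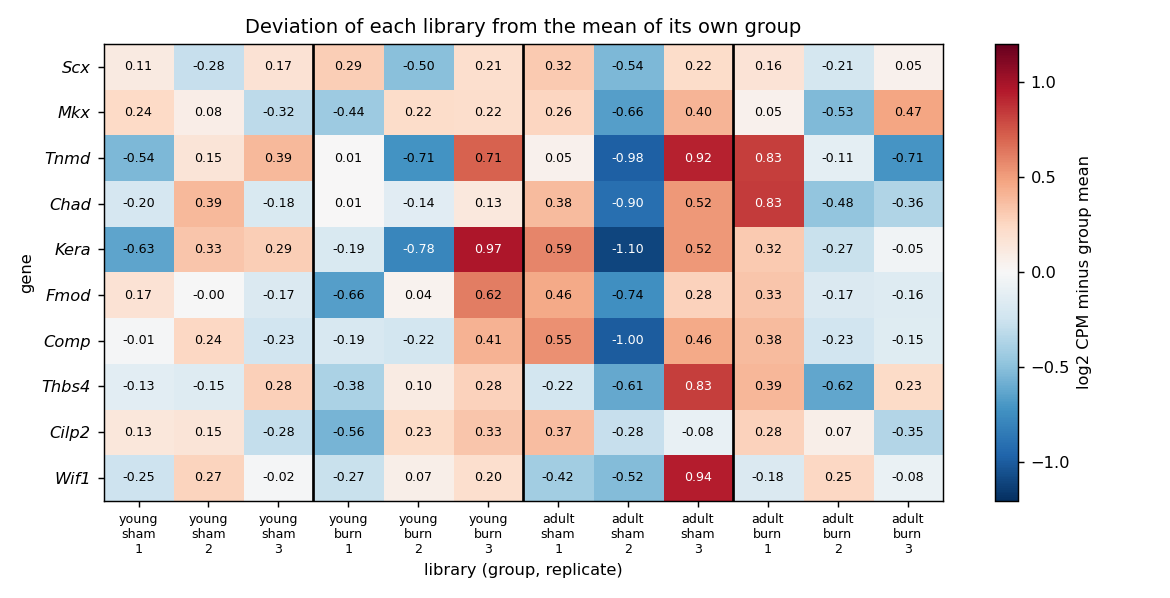
Log2 CPM of each gene (rows) in each library (columns) minus the mean of the library's own group, with the value in each cell, red above and blue below the group mean. The column of adult sham replicate 2 is blue for all 10 genes, that of young burn replicate 3 is red for all 10, and the young sham columns are mixed.

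In 3 of the groups 1 library was the highest or the lowest for most of the genes. In adult sham, replicate 2 was the lowest library for 10 of 10 genes, with a mean deviation of -0.73 on the log2 scale, while 32.7% of all tested genes were lowest there. In young burn, replicate 3 lay above the group mean for 10 of 10 genes and was the highest library for 8, with a mean deviation of 0.41, against 30.4% of tested genes highest there. In adult burn, replicate 1 was the highest library for 8 of 10 genes (mean deviation 0.34, against 33.6% of tested genes), and replicate 2 the lowest for 7. No such order was seen in young sham, where the mean deviations were -0.11, 0.12 and -0.01 and no library was highest for more than 5 genes. Young burn replicate 2, the library that stood apart over all genes, was lowest for 5 of the 10 genes and highest for 1, against 47.6% of tested genes lowest there.

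The summed level of the 10 genes was 502 to 516 CPM in young sham, 163 to 304 in young burn, 184 to 430.2 in adult sham and 171 to 283 in adult burn. The young sham libraries were nearly equal and above all others, and adult sham spanned nearly the whole range of the burn libraries. Fmod and Thbs4 make up most of this sum.

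The joint movement was then tested against Tnmd in a model with a mean for each group and a slope on the log2 deviation of Tnmd, fitted for all tested genes. All 9 other marker genes had positive slopes, with a median of 0.40 log2 units per log2 unit of Tnmd, against 0.01 over all 12407 tested genes. Kera had the steepest at 0.86 ± 0.18 (unadjusted p = 0.000336, adjusted p = 0.402) and stood at rank 9 of all genes by p. Chad followed at 0.62 ± 0.17, Comp at 0.49 ± 0.17, Wif1 at 0.47 ± 0.24, Thbs4 at 0.40 ± 0.15, Fmod at 0.35 ± 0.16 and Scx at 0.28 ± 0.14, and Cilp2 at 0.11 ± 0.16 and Mkx at 0.09 ± 0.27 were within 1 SE of 0. No gene was called in this fit by edgeR after adjustment over all genes. At an unadjusted p under 0.05 stood 5 of the 9 genes and 972 of all tested genes, or 7.83%. DESeq2 called 21 genes (0.169%), with Kera among them. By edgeR, 0 of the 9 were called when any 1 library was left out. DESeq2 was run again only without young burn replicate 2, where it called 0 of the 9. With Fmod as the gauge in place of Tnmd the median slope of the 9 other genes was 0.83, all 9 positive and 0 called. Without adult sham replicate 2 the median slope on Tnmd was lowest, at 0.26, and 8 of the 9 were positive. Markers of other cells had positive slopes too: all 5 tested adipocyte genes (median 0.43), all 6 slow fibre genes (median 0.27) and all 8 genes of fibro-adipogenic cells (median 0.20), with 0 called. So had all 5 red blood cell (median 0.20), all 5 macrophage (median 0.12) and all 5 endothelial genes (median 0.07), again with 0 called. Not all lists did: 2 of 10 muscle fibre, 2 of 5 tested Schwann cell, 1 of 4 smooth muscle and 1 of 2 tested neutrophil genes were negative. The part of these other cells in the slopes of the tendon marker genes was not tested.

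**Figure D4:**
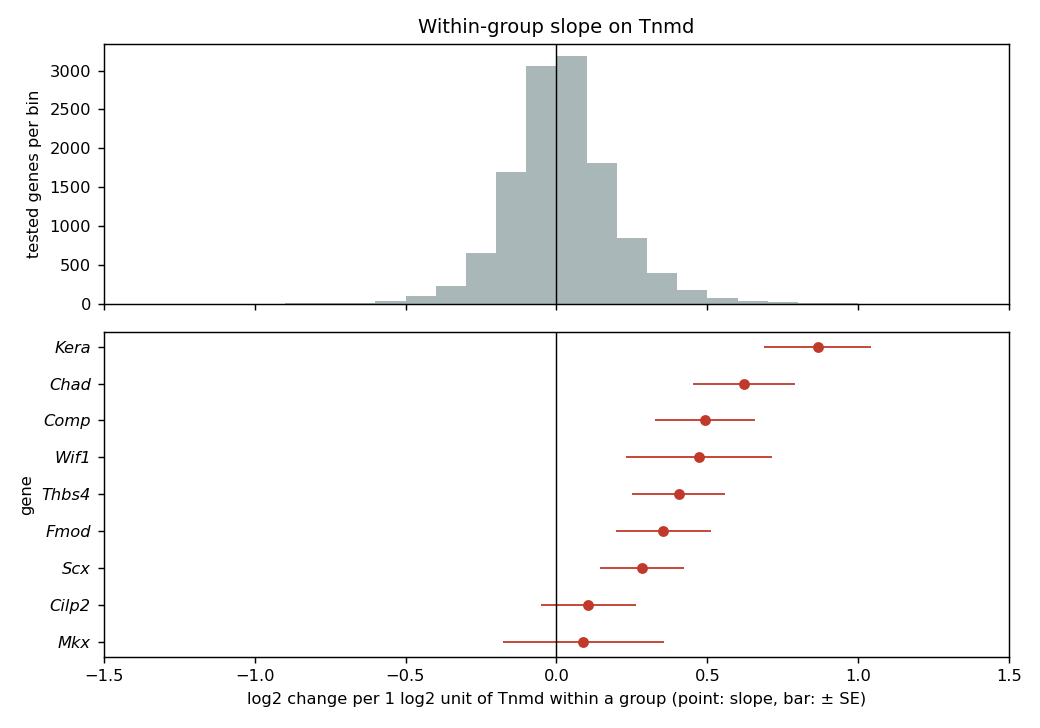
Above, the number of tested genes by their slope on Tnmd within groups, in bins of 0.1 log2 units per log2 unit (horizontal), centred near 0. Below, the slope ± SE of the 9 other marker genes on the same axis, all above 0 and running from 0.09 for Mkx to 0.86 for Kera.

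The 15 genes outside the list with the smallest p among positive slopes were, by their p, Mybph, Ccn3, Col1a1, Col3a1, Col14a1, Col1a2, Fbn1, Col6a2, Otub2, Emp1, Efemp1, Postn, Pdzd7, Arhgef37 and Nedd9, with adjusted p between 0.367 and 0.446. The slopes were 0.44 ± 0.08 for Col1a1 and 0.39 ± 0.08 for Col1a2, the chains of type I collagen, 0.43 ± 0.08 for Col3a1, 0.49 ± 0.10 for Col14a1, which sits on fibrils, and 0.77 ± 0.17 for Postn, the matricellular protein periostin. In young burn against young sham the log2 differences were -0.63 ± 0.24 for Col1a1, 0.34 ± 0.25 for Col3a1, 0.21 ± 0.27 for Col14a1 and 0.24 ± 0.41 for Postn, with adjusted p of 0.1805, 0.455, 0.695 and 0.767. The 5 genes with the smallest p among negative slopes were Orm3, Cry2, Samd10, Ube2g1 and Dnase1, none of them called.

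A list of 30 other tendon matrix genes, all tested, had no common direction after the burn in young mice. In young burn against young sham 13 of the 30 were negative, 0 were called in either direction in 12 and in 11 libraries, and the median log2 difference was 0.13. Their summed level was 11856 to 13426 CPM in young sham and 10864 to 14207 CPM in young burn, overlapping throughout. In adult burn against adult sham 24 of the 30 were negative with a median of -0.11 and 0 called (1 higher in 11 libraries). The range in young burn against young sham was wide, from -1.80 ± 0.38 for Ecrg4 (adjusted p = 0.0659) to 1.33 ± 0.34 for the lubricin gene Prg4 (adjusted p = 0.0841). Next to Ecrg4, 4 more genes had a log2 difference below -1, chosen here after their values were seen: Matn4 at -1.60 ± 0.40, Tnc at -1.52 ± 0.32, Ptx4 at -1.21 ± 0.49 and Col12a1 at -1.10 ± 0.28. Between the ages 9 of the 30 were called higher in young sham than in adult sham and 14 in young burn than in adult burn, and 0 were called lower in either. In 11 libraries the counts were 14 and 17 higher, with 1 lower between the burn groups (Angptl7, log2 -1.12, adjusted p = 0.0410). The 12-library counts stand against 1.92% and 5.98% of tested genes called higher, and the 11-library counts against 5.27% and 11.2%. Col1a1 was higher in young sham by 2.22 ± 0.25 (adjusted p = 0.000877), Col1a2 by 1.93 ± 0.23 (adjusted p = 0.00141) and Sparc, a collagen-binding matricellular protein, by 1.66 ± 0.18 (adjusted p = 0.000576). In the slope on Tnmd 26 of the 30 were positive, with a median of 0.26 and 0 called.

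**Figure D5:**
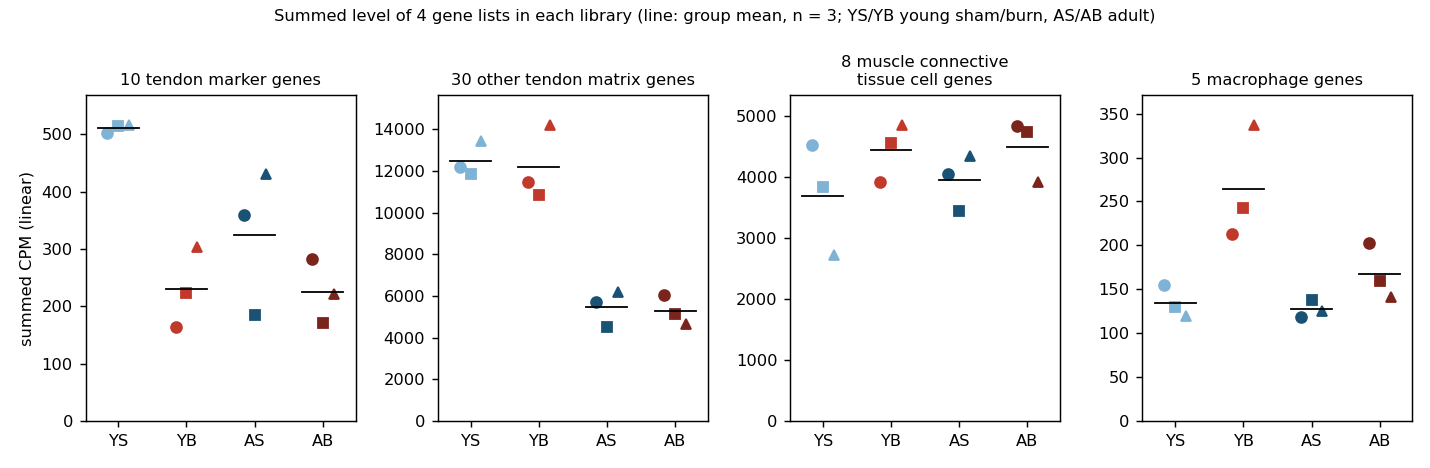
Summed CPM (linear axis from 0) of 4 gene lists in each library by group, with replicate symbols as in the plot of single genes and a line at the group mean (n = 3). The 10 marker genes are lower in young burn than in young sham, the 30 other matrix genes overlap between these groups and are higher in both young groups, and the macrophage genes are higher in young burn.

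Regulators of the tendon programme other than Scx and Mkx were read next. Of 17 genes for growth factors, receptors and transcription factors, 16 were tested, and in young burn against young sham 0 were called and 10 were negative with a median of -0.15. Without young burn replicate 2, Tgfbr2, a TGF-β receptor, rose by 0.57 on the log2 scale (adjusted p = 0.0418). The share of all tested genes called higher in that setting is not given here. The other thrombospondins Thbs1, Thbs2 and Thbs3 had a median of 0.08 with 0 of 3 called, and 7 tested Wnt antagonists other than Wif1 had a median of 0.21 with 0 called.

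Markers of other tissues and cells were read in the same libraries, since cartilage, bone and fascia lie near the tendon. Of 12 cartilage genes 3 were at 0 in all libraries and Acan, the main cartilage proteoglycan, had 1 count in all. The list summed to 7.56 to 9.99 CPM in young sham, 3.27 to 5.20 in young burn, 5.09 to 8.06 in adult sham and 1.99 to 4.70 in adult burn, so that it was low throughout and each burn group lay below its sham group. Its tested members were Col2a1 and Col9a1, at -1.53 and -1.36 in young burn against young sham, neither called. Between the shams Col2a1 was called higher in young sham (log2 1.82 ± 0.44, adjusted p = 0.0366), from 51 against 15 counts. Col9a1 was at -0.71 there and not called, and 1.92% of tested genes were called higher. Of 5 bone genes only Phex was tested, and Ibsp was at 0. Keratinocyte genes Krt5, Krt14 and Krt1 had 0 counts and Krt10 had 404 in all. The 5 genes of the myotendinous junction, where fibre and tendon meet, had a median of -0.46 in young burn against young sham (-0.06 in 11 libraries) with 0 called, and summed to 135 to 183 CPM in young sham and 134 to 176 CPM in young burn. Their median slope on Tnmd was -0.10, with 3 of 5 negative.

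Markers of other cells in the muscle were read in both burn comparisons, with 0 genes of the macrophage, neutrophil, fibro-adipogenic and fibre lists called in 12 libraries. All 5 macrophage genes were higher in young burn than in young sham, with a median of 1.08, summed levels of 119.9 to 155 against 213 to 337 CPM, and 1 call (C1qa) in 11 libraries. The neutrophil genes S100a8 and S100a9 summed with 2 others to 0.975 to 3.17 CPM in young sham and 8.38 to 26.8 CPM in young burn, with 1 call (S100a9) in 11 libraries, while Ly6g was at 0. Of 8 genes of fibro-adipogenic cells, the fibroblasts of muscle, 6 were higher in young burn, with a median of 0.31, a summed level of 2715 to 4519 against 3912 to 4849 CPM, and 1 call (Ly6a) in 11 libraries. The share of all tested genes called higher in young burn in these 11 libraries is not given here, so the calls of C1qa, S100a9 and Ly6a are not read against it. The 10 muscle fibre genes summed to 152489.6 to 211891 CPM in young sham and 102779.8 to 136007 CPM in young burn. In adult burn against adult sham all 5 macrophage genes were positive (median 0.38), with sums of 118 to 138 CPM in adult sham and 141 to 203 CPM in adult burn. All 6 slow fibre genes were negative there (median -1.01), with sums of 609.6 to 1508 against 515 to 615 CPM. In 11 libraries 2 of these 6 (Myl3 and Myl2) and 2 of the 10 muscle fibre genes (Myh1 and Myh2) were called lower in adult burn. Of 12651 genes tested there, 115 were called in either direction. The part of these shifts, of the cartilage genes and of the amount of tendon in each sample in the differences of the marker genes was not tested. In bulk RNA, fewer tendon cells in the sample and less RNA of these genes per cell cannot be told apart.

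The position of the genes was checked for reads shared with neighbours. On GRCm38, Tnmd lies at chrX:133850980-133865577, Kera at chr10:97606879-97613692, Chad at chr11:94565047-94569127, Fmod at chr1:134037254-134048277 and Thbs4 at chr13:92751590-92794818. Comp and Cilp2 share chromosome 8, at chr8:70373558-70382066 and chr8:69880369-69887687, Wif1 lies at chr10:121033960-121100650 and Scx at chr15:76457452-76459458. Values are counts over all exons of a gene. Chad lies inside Acsf2 and Scx inside Bop1, both on the opposite strand and with 0 shared exon bases. Acsf2 had 233 counts in all and a log2 difference of -0.06 in young burn against young sham (adjusted p = 0.935), and Bop1 had 1609 counts and 0.29 (adjusted p = 0.328). Mkx shares 201 exon bases with an annotated transcript that had 0 counts. Next to Kera stand the genes of related leucine-rich proteoglycans, of which Epyc had 1 count and Lum had 7519 counts and a log2 difference of 0.21 (adjusted p = 0.611).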

How the data were processed

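Per the labels and the study's methods, the authors aligned paired reads of 75 bases to GRCm38 with STAR and deposited raw gene counts on Gencode M25. The submitters' processing notes list bcl2fastq 2.20, STAR 2.7.5c and featureCounts 2.0.1, and no source used here gives the strand counted. The deposited miRNA counts were not used here. Of 55401 genes, 260 had no match in Gencode M21, which gave symbols and positions.

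Counts were filtered with filterByExpr (minimum count 10, minimum total 15), TMM-scaled and tested in 12 libraries with a mean per group by the quasi-likelihood test of edgeR 4.0.16 in R 4.3.3, two-sided. P-values were adjusted by Benjamini-Hochberg across every gene tested. Group means and RPKM are of CPM, and deviations of log2 CPM with a prior count of 2. SE are those of the log2 fold change, and 95% intervals are the estimate ± 1.96 SE. Replicates are separate mice. No pair of replicates was the same library, as their chi-square over degrees of freedom was at least 3.34. DESeq2 1.42.0, library size scaling, no filter, a replicate block, the 2 groups alone, Fmod in place of Tnmd and each library left out were alternatives.

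On simulated data edgeR recovered 189 of 200 genes changed by 2 on the log2 scale in young burn against young sham, with 7 false calls over 12252 genes, and 182 of 200 slopes of 1 with 14 false calls over 12237 genes. The simulated counts were drawn independently, with no library standing apart as young burn replicate 2 does. They check the code only and do not give the share of such changes that would be called in these data. The members, lists and tests were chosen with earlier results of these data known. The text names all 10 members, called genes of the lists (at most 4 per list and comparison by p), the ends of a list's range, overlapping or neighbouring genes, and the 15 positive and 5 negative slopes with the smallest p. Figures were drawn with matplotlib 3.10.9.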

Additional observations from a re-analysis of the deposited data

How the results depend on the processing

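The 10 marker genes were lower in young burn than in young sham under every alternative run, while the number called ran from 0 to 9 (0 in the main edgeR fit of 12 libraries). With library size scaling 615 genes and 5 of the 10 were called there. This scaling moved the median of all genes from 0.01 to 0.25 and that of the 10 genes from -1.53 to -1.30, and in young sham against adult sham from 0.01 to -0.13 and from 0.88 to 0.75. It turned the split of calls from 238 higher and 229 lower to 151 and 445 between the shams, and from 742 and 601 to 999 and 325 between the burn groups. The interaction was then negative for 9 of 10, with Tnmd at 0.0286, and Fmod and Thbs4 were at 0.0435 and 0.0380 in young burn against adult burn.

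DESeq2 called 432 genes and 7 of the 10 in young burn against young sham, 11 genes in adult burn against adult sham, 1 gene in the interaction, and 21 genes with 1 of the 9 in the slope. With no filter on low counts 28528 genes were tested, and 28527 in the slope. The calls were 1095 genes and 9 of the 10 for the young burn difference, 285 and 6 for the adult one, and 1011 and 6 between the shams. They were 116 genes in the interaction, and 256 genes and 4 of the 9 in the slope. Between the burn groups 3 of the 10 were called. The share of all genes called there is not given here, so that count is no support. With the 2 groups alone 1 gene was called for the young burn difference, 115 for the adult one, 1163 between the shams, and 314 with 0 of 8 tested marker genes between the burn groups. The interaction needs all 4 groups and has no such value. DESeq2 in the 11 libraries without young burn replicate 2 was chosen after seeing the data. It called 192 genes and 4 of the 10 for the young burn difference, 216 and 1 for the adult one, 1193 genes between the shams, 53 in the interaction and 27 in the slope, with the Tnmd interaction at 0.13. The cause of these changes was not tested.

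Same-numbered mice did not deviate together: the correlations of their deviations ran from -0.20 to 0.153 over 18 pairs, with 3 over 0.1, so the numbers were not taken to pair mice. With a replicate block 3 genes were called in adult burn against adult sham, 0 of the 10 in young burn against adult burn, and the Mkx slope was -0.0403. The block changed no other count of calls by over 1.5 times.

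With each library left out in turn, the calls in young burn against young sham ran from 1 to 697 genes and from 0 to 6 of the 10, with the most without young burn replicate 1. In adult burn against adult sham they ran from 1 to 115 genes and stayed at 0 of the 10, between the shams from 97 to 1488 genes and from 0 to 4 of the 10, and between the burn groups from 390 to 2623 genes and from 0 to 1 of the 10. In the interaction they ran from 0 to 12 genes and in the slope from 0 to 1 gene, with 0 marker genes in both. The highest gene counts in the last 4 of the 5 comparisons were without young burn replicate 2. Signs turned for values near 0. Thbs4 ran from -0.37 (without adult sham replicate 2) to 0.44 (without adult sham replicate 3) in adult burn against adult sham. The Tnmd interaction ran from -0.79 (without adult sham replicate 3) to 0.42 (without adult burn replicate 1), and the Mkx slope from -0.20 (without adult sham replicate 2) to 0.26 (without adult burn replicate 3). In young burn against adult burn, Chad ran from -0.13 to 0.74, Comp from -0.43 to 0.0529, Fmod from -0.42 to 0.21, Scx from -0.0858 to 0.30 and Thbs4 from -0.32 to 0.13.

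Mkx and Wif1 rest on 110 and 151 counts in all 12 libraries, and 3 mice a group leave wide intervals.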
